A study of Caenorhabditis elegans with 15 samples.

Results

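Batch 1 and batch 4 were 2 of the 5 batches of wild-type Caenorhabditis elegans (N2, whole animals) in a poly-A RNA-seq study of ursolic acid (UA), a plant triterpenoid. The members were 6 libraries of 15 in all, namely the untreated, DMSO and UA library of batch 1 and the same 3 of batch 4. The pair was selected on its position along the main axis that separated the batches, where batches 1 and 4 lay close together, and that position was computed from the same counts as everything that follows. All animals were hatched without food, fed OP50 bacteria for 34 h to the third larval stage, then left untreated, given the vehicle DMSO, or given UA at 50 µM in DMSO for 12 h, and harvested as L4 larvae. No group carried a mutation or transgene. The labels give a batch number for each library but not whether the 3 libraries of a batch came from separate cultures, so that p-values measure the difference between these 2 batches against the spread of libraries within batches, which may be technical. Anything else that differed between the batches, such as a day, a plate lot or a culture, cannot be told apart from the batch.

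The fourth larval stage is the last before adulthood. During it the hermaphrodite gonad makes sperm and then switches to oocytes, the hypodermis secretes the collagens of the adult cuticle, and the intestine begins to transcribe the vitellogenin genes, whose yolk proteins are taken up by oocytes. Many cuticle genes are transcribed in pulses timed by the moulting cycle. Xenobiotic enzymes, lectins and lysozymes of the intestine respond to food, microbes and chemicals.

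The 6 libraries held 22353474 to 27474535 counts assigned to genes, with 22755677 to 27474535 in batch 1 and 22353474 to 24242042 in batch 4. Mitochondrially encoded genes took 0.391% to 0.420% of the counts. The 10 most abundant genes took 4.89% to 4.98% of the counts in batch 1 and 4.58% to 4.81% in batch 4, so that the batches did not overlap on this share, and its part in the results was not tested. A total of 14037 of the 20541 genes in the table had enough counts to be tested. Counts of reads without molecular identifiers give counting error only, and the spread between libraries was taken from the model.

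The main batch axis, the first principal component after treatment means had been removed, carried 60.8% of the variance over the 15 libraries. Batch 1 had a mean score of -29.1 ± 1.67 (SD, n = 3) and batch 4 a mean score of -24.4 ± 2.39 (SD, n = 3). Batches 2, 3 and 5 had mean scores of -8.07, 23.5 and 38.2. Batch 4 thus lay 7.01% ± 3.55 (SD, n = 3) of the way from batch 1 to batch 5, or 0.261% with the untreated libraries alone, and the nearest batch outside the pair was batch 2. These positions are what the pair was chosen by and are given as a description, with no test. Component 3, with 5.99% of the variance, separated the pair, as the scores of batch 1 were 4.39 to 7.27 and those of batch 4 were -14.3 to -10.0.

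**Figure D1:**
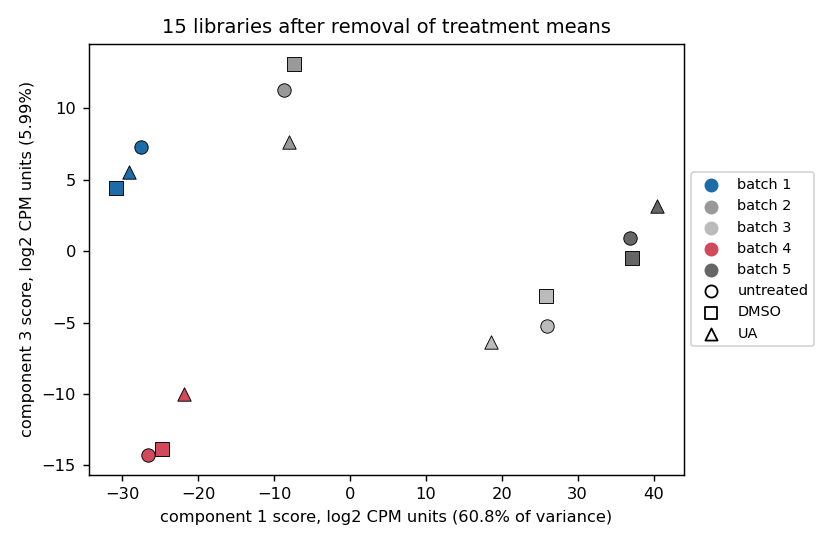
Scores of the 15 libraries on component 1 (x axis) and component 3 (y axis) of log2 CPM after removal of treatment means, with colour for batch and symbol for treatment. Batches 1 and 4 share the left end of component 1, between -30.9 and -21.9, and lie on opposite sides of 0 on component 3.

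Between batch 4 and batch 1, 517 genes differed at an adjusted p under 0.02 (edgeR quasi-likelihood test, treatment as a block, Benjamini-Hochberg adjustment), which was 3.68% of the genes tested. Of these, 225 were higher in batch 4, or 1.6% of the genes tested, and 292 were lower, or 2.08%. At least 2-fold differences were found for 70 genes, 0.499% of those tested, of which 22 were higher and 48 lower in batch 4. The median absolute log2 fold change of the 517 genes was 0.43 and the range was 0.18 to 2.74, while the median log2 fold change over all tested genes was -0.0021. The sign was the same in untreated, DMSO and UA libraries for 516 of the 517, compared with 41.7% of all tested genes, and the 3 libraries of batch 4 did not overlap the 3 of batch 1 for 492, or 95.2%, compared with 25% of all tested genes. The 517 were called on these same libraries, so both high shares largely follow from the calling and are no separate evidence. At an unadjusted p under 0.05 there were 2558 genes of the 14037. The count of 517 moved with the library left out, and was 240 without the untreated library of batch 1, 306 without its DMSO library, 331 without its UA library, 317 without the untreated library of batch 4, 222 without its DMSO library and 775 without its UA library.

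The same test called 3116 genes (22.2%) between batches 5 and 3, the pair at the other end of the axis, and 6526 genes (46.5%) between the mean of batches 1 and 4 and the mean of batches 3 and 5. Among the 10 pairs of batches, batches 1 and 4 had the fewest genes called, and the other 9 pairs ranged from 2060 (14.7%), between batches 3 and 2, to 5747 (40.9%), between batches 5 and 4. The pair was chosen for lying close together, so its low count is partly fixed by that choice. The 10 pairs share libraries and were not tested against each other.

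**Figure D2:**
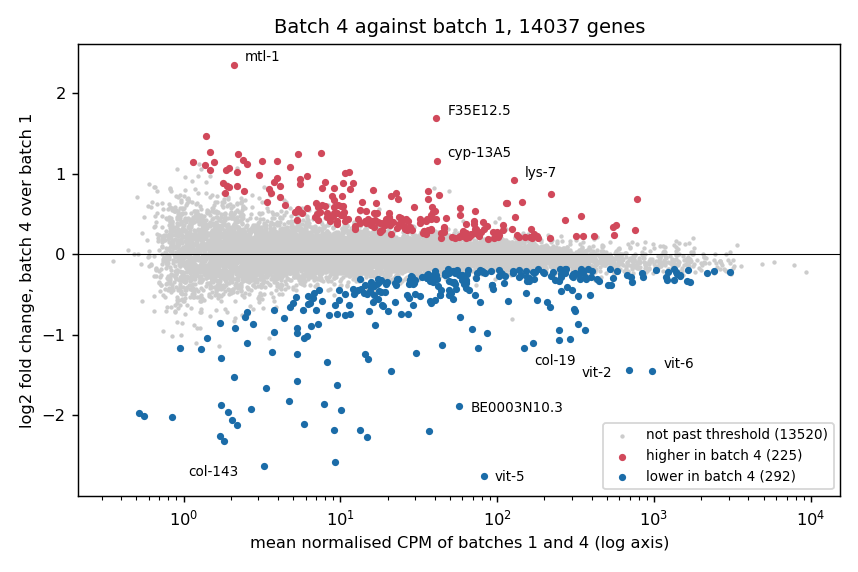
Log2 fold change of batch 4 over batch 1 (y axis) against the mean normalised CPM (counts relative to library size) of the 2 batches (x axis, log scale) for the 14037 tested genes. The 292 genes lower in batch 4 reach further from 0 than the 225 higher, with vit-5 at -2.74 and mtl-1 at 2.35.

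Genes of yolk and of the cuticle were among those that fell most in batch 4. All 6 vitellogenin genes fell, by 0.78 to 2.74 on the log2 scale with a median of -1.44, and 5 of the 6 by more than 2-fold. Of 115 tested cuticle collagens of the col family, 36 (31.3%) fell and none rose, and 13 of them fell at least 2-fold. The median of the 115 was -0.12.

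Vit-2 encodes a yolk protein of the large vitellogenin class. It stood at 993, 1176 and 849 normalised CPM (counts relative to the library size after TMM scaling) in the untreated, DMSO and UA libraries of batch 1 and at 447, 393 and 294 CPM in those of batch 4. The groups did not overlap, the lowest batch 1 library being above the highest of batch 4. The UA library was the lowest in batches 1, 4 and 5, but in batches 2 and 3 the DMSO library was. There the DMSO and UA libraries were close, at 304.7 and 304.9 CPM in batch 2 and 105.3 and 109 CPM in batch 3. The log2 fold change was -1.43 (SE 0.10), or 2.70-fold lower, with an edgeR adjusted p of 4.34e-08.

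Vit-6, which encodes the precursor of the smaller yolk proteins, had 1412, 1637 and 1223 CPM in batch 1 and 630, 530 and 421 CPM in batch 4 in the same order of treatments. It again did not overlap and differed by -1.45 (SE 0.10; edgeR adjusted p 4.34e-08). Vit-5 showed the largest fold change of any gene called, with 134, 177 and 117 CPM in batch 1 and 24.1, 25 and 14.8 CPM in batch 4. Its level in batch 4 was 6.70-fold lower (log2 -2.74, SE 0.21; edgeR adjusted p 9.95e-08).

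Vit-4 fell by 2.27 on the log2 scale, vit-3 by 1.22 and vit-1 by 0.78. Vit-3, vit-4 and vit-5 are near-identical copies and the handling of reads that match several places was not given in the sources used here, so the division of reads among these 3 is uncertain. Vit-3 and vit-4 lie next to each other on chromosome X, between 3558769 and 3572549 (WBcel235), each with 6 exon blocks. The count of 6 yolk genes lower in batch 4 was found in each of the 17 alternative analyses.

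Against the other batches, the yolk transcripts of batch 4 were within the range and those of batch 1 mostly above it. The mean of vit-2 was 1006 ± 164 CPM (SD, n = 3) in batch 1, 378 ± 77.6 in batch 4, 339 in batch 2, 121 in batch 3 and 117 in batch 5. For 5 of the 6 vitellogenin genes, all but vit-1, the 3 libraries of batch 1 lay above all 12 libraries of the other batches, and no vitellogenin gene had the libraries of batch 4 outside the range of the rest. Since the RNA came from whole animals, fewer expressing cells and less RNA per cell cannot be told apart.

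The collagens that fell most were col-143, col-8, col-119 and col-7, with log2 fold changes of -2.62, -2.57, -2.19 and -2.18. Col-19, a collagen of the adult cuticle whose transcription begins at the passage from larva to adult, had 205, 234 and 174 CPM in the untreated, DMSO and UA libraries of batch 1 and 103, 100 and 70.7 CPM in batch 4. Its groups did not overlap, and the fold change was -1.17 (SE 0.13; edgeR adjusted p 1.69e-05). Over the batches, col-19 averaged 204 ± 30.0 CPM (SD, n = 3) in batch 1, 91.3 ± 17.9 in batch 4, 61.2 in batch 2, 16.25 in batch 5 and 7.5 in batch 3.

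Of 7 adult-stage cuticle collagens on the list, col-7, col-62 and col-19 fell, each at least 2-fold. Col-119 had 59.7, 73.5 and 47.0 CPM in batch 1 and 14.3, 14.6 and 10.4 CPM in batch 4 (4.56-fold lower; log2 -2.19, SE 0.14; edgeR adjusted p 1.21e-08). Some abundant collagens moved as well, as col-139 averaged 389 CPM in batch 1 and 189 CPM in batch 4, and col-81 335 and 161 CPM. Col-139 and col-81 were picked after their values were seen. All tested cuticle collagens together summed to 33040 to 35340 CPM in batch 1 and 29370 to 32150 CPM in batch 4. For 30 of the 36 collagens called, the libraries of batch 1 were above those of all other batches, and for 2 of the 36 the libraries of batch 4 were outside the rest.

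The collagens that give the larva its body shape (the dpy, rol, sqt and related genes) gave 2 calls. Of 20 tested, rol-6 rose by 0.24 and dpy-3 fell by 0.27, while 17 of the 20 had a negative value and the median over the list was -0.07. Neither was called without the UA library of batch 1 or the untreated or DMSO library of batch 4. Of 28 moulting enzymes and matrix genes, mlt-7, a peroxidase needed for the moult, was the only member called (-0.21), and it passed with 1 library left out only where that was the UA library of batch 1. Among 39 hedgehog-related genes, which are expressed mainly in hypodermis, grl-21, grl-4 and grd-6 fell (by 0.55, 0.44 and 0.44) and none rose.

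Small families of neighbouring genes were lower in batch 4 in the same way. ZK813.1, ZK813.3 and ZK813.7, within 5.1 kb of chromosome X (3441839 to 3446935), fell by 2.32, 2.26 and 2.12 on the log2 scale. Y62H9A.3, Y62H9A.4, Y62H9A.5 and Y62H9A.6, within 4.9 kb of the same chromosome (11879110 to 11884042), fell by 1.96, 2.06, 1.83 and 1.57. D1054.10 and D1054.11 on chromosome V fell by 1.24 and 1.44. For each of these 9 genes the 3 libraries of batch 1 were above the other 12, and batch 3 had the lowest mean. No role is assigned here to any of the 9 genes, and Y62H9A.3, Y62H9A.5, Y62H9A.6, D1054.10 and D1054.11 were picked after their values were seen.

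**Figure D3:**
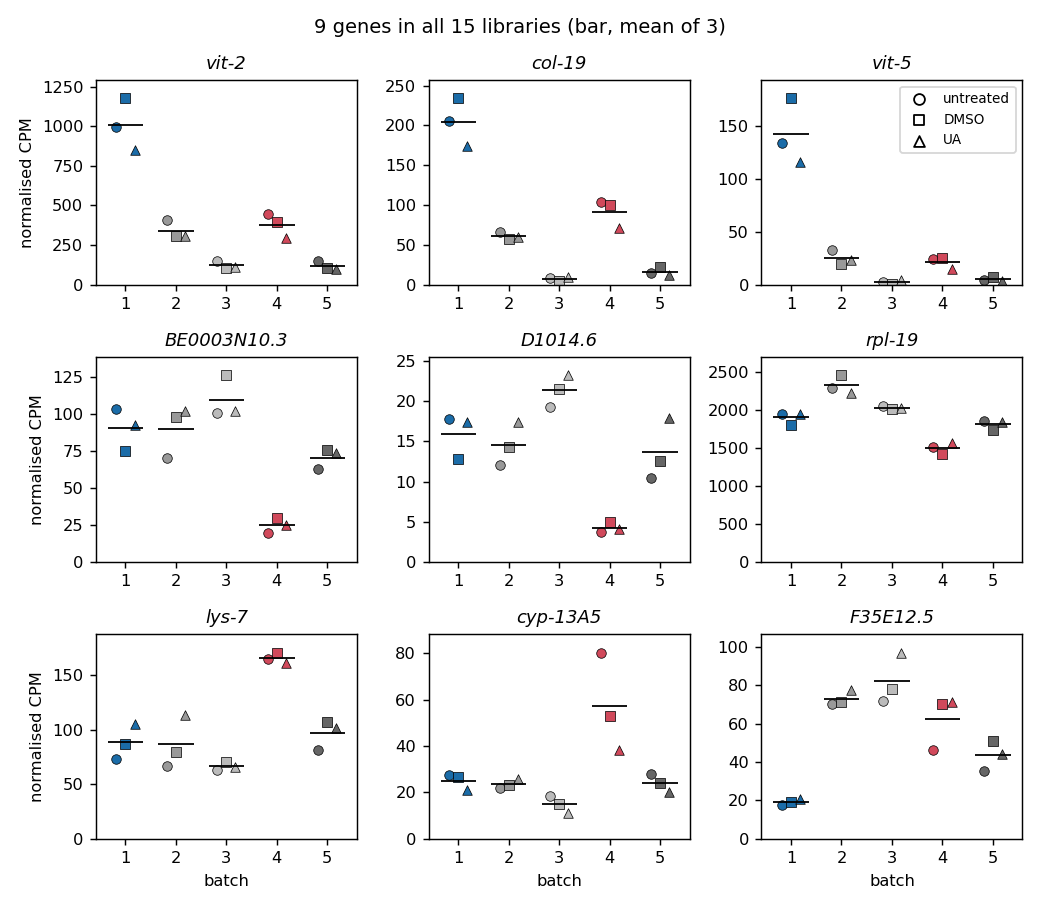
Normalised CPM (y axes, from 0) of 9 genes in all 15 libraries by batch (x axes), with symbols for treatment and a bar at the mean of 3. Vit-2, col-19 and vit-5 are highest in batch 1, BE0003N10.3, D1014.6 and rpl-19 lowest in batch 4, lys-7 and cyp-13A5 highest in batch 4, and F35E12.5 lowest in batch 1.

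A second group of genes was low in batch 4 and at like levels in the remaining batches. BE0003N10.3 had 103, 74.8 and 92.2 CPM in the untreated, DMSO and UA libraries of batch 1 and 19.6, 29.8 and 24.7 CPM in batch 4, with means of 89.6, 109 and 70.3 CPM in batches 2, 3 and 5. All 3 libraries of batch 4 were below the other 12, and the fold change against batch 1 was -1.89 (SE 0.14; edgeR adjusted p 7.05e-08). Y71G12B.18 averaged 21.9 CPM in batch 1 and 4.89 CPM in batch 4 (-2.18, SE 0.18; edgeR adjusted p 2.63e-07), and was between 17.6 and 31.3 CPM as a mean in batches 2, 3 and 5.

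D1014.6 and D1014.7, neighbours on chromosome V (8118264 to 8123470), showed the same order. D1014.6 averaged 16 CPM in batch 1 and 4.23 CPM in batch 4 (-1.93), and D1014.7 9.45 and 2.2 CPM (-2.11). Gly-1, a gene of a glycosyltransferase family, averaged 4.26 ± 0.337 CPM (SD, n = 3) in batch 1 and 1.12 ± 0.131 CPM in batch 4 (-1.92, SE 0.17; edgeR adjusted p 7.74e-07), and was again below all other libraries in batch 4. BE0003N10.3, D1014.6 and gly-1 were picked after their values were seen.

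Among the 48 genes at least 2-fold lower in batch 4, the libraries of batch 1 lay outside the other 12 for 37, those of batch 4 for 10, both for 1 and neither for 2. Among the 22 genes at least 2-fold higher, batch 4 lay outside for 9, batch 1 for 2 and neither for 11. Over all tested genes, batch 1 lay outside the other 12 libraries for 4.01% and batch 4 for 6.33%. By chromosome, 20 of the 48 genes at least 2-fold lower were on X, which held 1978 of the 14037 tested genes, and 12 of the 22 at least 2-fold higher were on V, which held 2721. The 20 on X included the neighbouring ZK813 genes, the neighbouring Y62H9A genes, and vit-3 and vit-4. Without the 2-fold limit, 2.63% of the tested genes on X and 2.65% of those on V were called lower, against 2.08% of all. Called higher were 0.961% on X and 3.16% on V, against 1.6% of all.

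Smaller shifts were seen in genes of protein synthesis and folding. Of 79 cytosolic ribosomal protein genes, 17 (21.5%) fell and none rose, with called differences of 0.19 to 0.38 on the log2 scale and a median over the 79 of -0.17. All but 1 of the 79 had a negative value. Rpl-19 had 1951, 1798 and 1952 CPM in batch 1 and 1513, 1413 and 1569 CPM in batch 4, and its 3 libraries of batch 4 were below the other 12 (-0.34, SE 0.05; edgeR adjusted p 0.000445).

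For 13 of the 17 ribosomal genes the 3 libraries of batch 4 were below the other 12. The number called was among the least stable, at 2 without the untreated library of batch 1, 3 without its UA library, 5 without the untreated library of batch 4, 3 without its DMSO library and 27 with DESeq2. The summed ribosomal level was 113500 to 119700 CPM in batch 1 and 104900 to 106600 CPM in batch 4.

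Of 21 large heat shock proteins and chaperones, cct-1, cct-2, cct-4 and daf-21 fell and none rose. Daf-21, the worm HSP90, had 3323, 3266 and 3281 CPM in batch 1 and 2805, 2844 and 2809 CPM in batch 4 (-0.22, SE 0.05; edgeR adjusted p 0.00492). Cct-1, a subunit of the cytosolic chaperonin that folds actin and tubulin, averaged 407 ± 12.7 CPM (SD, n = 3) and 328 ± 7.41 CPM (-0.31). The count of 4 became 1 when any of the 6 libraries other than the UA library of batch 4 was left out. None of 32 proteasome subunits was called by edgeR or by DESeq2, with 3 at an unadjusted p under 0.05, and of 30 respiratory chain and ATP synthase genes only atp-4 was called (-0.18), a call lost when any of the 6 libraries other than the UA library of batch 4 was left out.

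Of 66 pqn and abu genes, which encode glutamine- and asparagine-rich proteins, several of them in the pharyngeal cuticle, 12 fell (18.2%) and none rose. Abu-7 averaged 14.4 ± 1.23 CPM (SD, n = 3) in batch 1 and 8.64 ± 1.64 CPM in batch 4 (-0.74, SE 0.09; edgeR adjusted p 5.29e-05). Abu-6 averaged 13.5 and 8.02 CPM (-0.75). The abu genes are close copies of each other, so that their separate values are uncertain. The 12 called became 8 without the DMSO library of batch 1 or without that of batch 4.

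**Figure D4:**
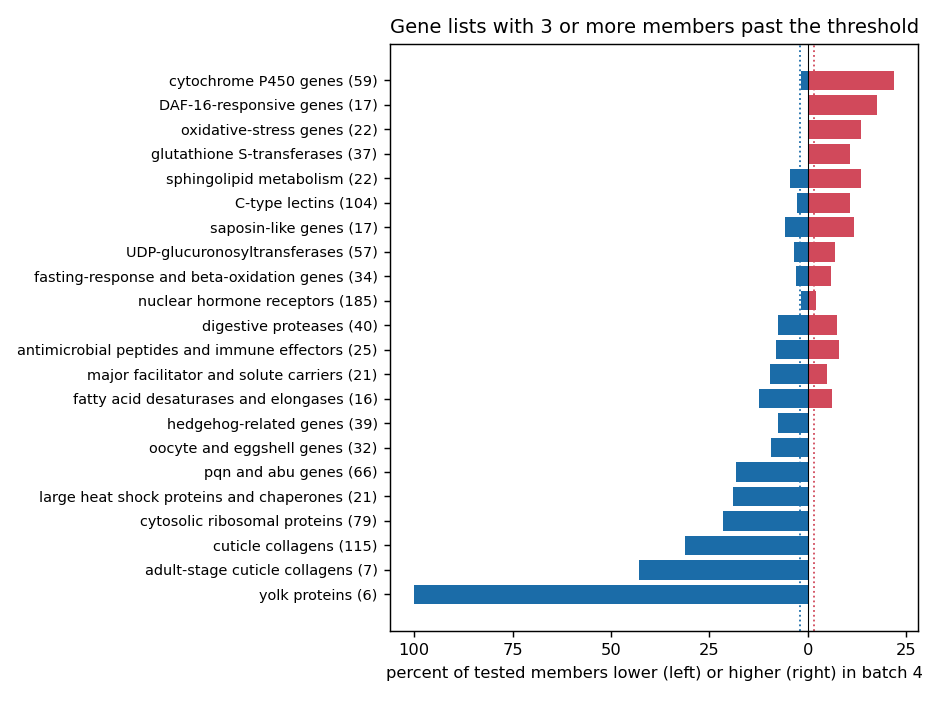
Percent of tested members of 22 gene lists that were lower (left of 0) or higher (right of 0) in batch 4, with the number tested in brackets and the 2.08% and 1.6% of all tested genes as dotted lines. Yolk proteins and collagens lie furthest to the left and cytochrome P450 genes furthest to the right.

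Cytochrome P450 genes, C-type lectins and both metallothioneins were among the genes higher in batch 4. They gave 4, 3 and 1 of the 22 genes at least 2-fold higher. Of 59 tested cytochrome P450 genes, oxidases of foreign compounds and lipids, 13 (22%) rose and 1 fell, with a median of 0.25 over the list. Of 104 C-type lectins, 11 (10.6%) rose and 3 fell. Of 37 glutathione S-transferases, 4 (10.8%) rose and none fell, but none rose without the untreated library of batch 1 or the DMSO library of batch 4, 1 without the DMSO library of batch 1 and 2 without the untreated library of batch 4. Of 57 UDP-glucuronosyltransferases 4 rose and 2 fell, and 2 rose without the DMSO library of either batch.

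Cyp-13A5 had 27.5, 26.6 and 21.1 CPM in the untreated, DMSO and UA libraries of batch 1 and 80.3, 53.0 and 38.4 CPM in batch 4. In batch 4 it was above all 12 other libraries, the untreated one most (1.16, SE 0.13; edgeR adjusted p 1.70e-05). Cyp-34A9 averaged 26.5 ± 1.79 CPM (SD, n = 3) in batch 1 and 46.1 ± 6.51 CPM in batch 4 (0.79, SE 0.09; edgeR adjusted p 1.31e-05) and was likewise above the rest; it was picked after its values were seen.

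Cyp-35B1 and cyp-35B2, neighbours on chromosome V (3939032 to 3944523) that may share reads, rose from means of 1.46 and 0.73 CPM to 3.30 and 2.05 CPM. For 8 of the 13 P450 genes that rose, the libraries of batch 4 were above those of all other batches. Cyp-34A2 was the member that fell (-0.91). The 13 called became 6 without the untreated or without the DMSO library of batch 1, 7 without the DMSO library of batch 4, and 19 without the UA libraries of both batches.

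Mtl-1, a metallothionein of the intestine, had the highest fold change (2.35, SE 0.34; edgeR adjusted p 0.000208). Its counts were low, 12, 8 and 31 in batch 1 and 133, 29 and 90 in batch 4, and in CPM the DMSO library of batch 4 (1.2) was just below the UA library of batch 1 (1.26). In each treatment alone batch 4 was higher. Mtl-2, the other metallothionein, averaged 14.9 CPM in batch 1 and 19.6 CPM in batch 4 (0.40), with the highest means in batches 2 and 3, and was not called without the untreated or DMSO library of batch 1 or the untreated library of batch 4.

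F35E12.5 had 17.9, 19.3 and 20.6 CPM in batch 1 and 46.2, 70.1 and 71.6 CPM in batch 4 (1.68, SE 0.10; edgeR adjusted p 9.18e-09). Here batch 1 stood apart, its 3 libraries being below the other 12, and batches 2 and 3 averaged 73.0 and 82.4 CPM. Its neighbours F35E12.6 and F35E12.8, picked after their values were seen, rose by 0.46 and 0.37.

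Lys-7, a lysozyme induced by several bacterial pathogens, had 73.5, 87.3 and 105 CPM in batch 1 and 165, 171 and 161 CPM in batch 4, above all other libraries (0.92, SE 0.10; edgeR adjusted p 1.32e-05). It was the only one of 12 lysozymes called. Clec-61 averaged 3.20 ± 0.244 CPM (SD, n = 3) and 7.60 ± 0.776 CPM (1.24, SE 0.22; edgeR adjusted p 0.00165), and the adjacent pair clec-71 and clec-174 on chromosome IV rose by 1.08 and 1.1. The 11 lectins that rose became 4 without the DMSO library of either batch, 5 and 6 without the untreated libraries of batches 1 and 4, and 7 without the UA library of batch 1.

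Among 25 antimicrobial peptides and immune effectors, 2 rose, irg-1 by 0.76 among them, and 2 fell, nlp-34 and cnc-4, peptides of the epidermis, by 0.63 and 0.60. The 2 that rose became 1 when any of the libraries other than the UA library of batch 4 was left out, and the 2 that fell became 1 without the untreated or UA library of batch 1 or the untreated or DMSO library of batch 4. Of 17 saposin-like genes, spp-2 and spp-18 rose (0.74 and 0.45) and spp-17 fell (-0.33). The 2 that rose became 1 without the untreated or DMSO library of either batch, and spp-17 was not called without the DMSO library of batch 4. None of 6 genes of the intracellular pathogen response was called by edgeR or DESeq2, with 2 at an unadjusted p under 0.05. Pud-3 and pud-4, neighbours on chromosome V, rose from 1.98 to 4.35 CPM and from 1.33 to 3.12 CPM as means, with log2 fold changes of 1.15 and 1.24.

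**Figure D5:**
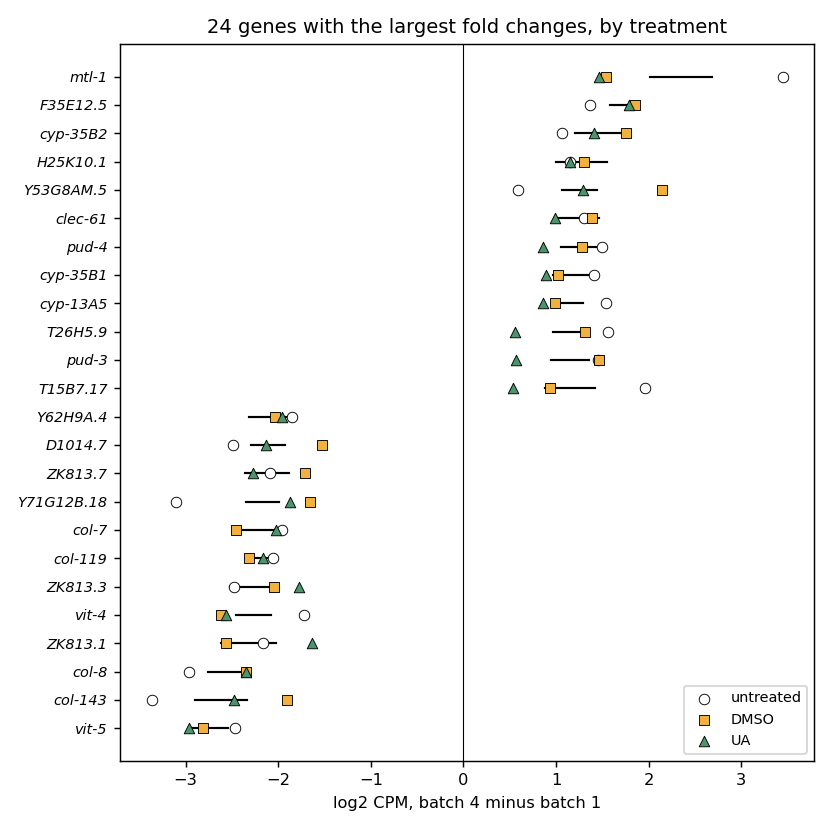
Difference in log2 CPM between batch 4 and batch 1 (x axis) for the 12 genes with the highest and the 12 with the lowest fold changes, 1 symbol for each treatment, and a line over the fitted fold change ± 1 SE. Both sets were ranked only among called genes with the same sign in every treatment. Those genes also had at least 10 counts in each library of the higher batch. That every symbol lies on the side of its gene's fold change thus follows from the selection and is no separate evidence. The widest scatter is that of mtl-1, whose fold change was 2.35.

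Genes of lipid handling were called in both directions. Of 34 fasting-response and beta-oxidation genes 2 rose (5.88%) and 1 fell (2.94%), of 16 fatty acid desaturases and elongases 1 rose and 2 fell, and of 26 lipases and lipid-binding proteins 1 rose and 1 fell. Fil-1, a lipase induced by fasting, rose from 2.70 ± 0.262 to 5.23 ± 0.167 CPM (SD, n = 3; log2 0.95, SE 0.16; edgeR adjusted p 0.000875). Fat-5, a palmitoyl-CoA desaturase, rose by 0.68, while fat-6, a stearoyl-CoA desaturase, and elo-2, a fatty acid elongase, fell by 0.19 and 0.31. Fat-5 was counted on 2 of these lists, as a fasting-response gene that rose and as the desaturase that rose. Cpt-4, a carnitine palmitoyltransferase, fell by 0.34. The lipase-like gene lips-15 fell by 0.50 and lips-3 rose by 0.31. Fat-6 lost its call in 10 of the 17 alternative analyses, and lips-3 when any of the 6 libraries other than the UA library of batch 4 was left out.

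Of 22 sphingolipid genes, the pathway studied for UA, 3 rose and 1 fell. Of the 22, 4 had a negative value, the median was 0.135 and 12 had an unadjusted edgeR p under 0.05. Those that rose were gba-2 (1.07), cgt-1 (0.36) and gba-1 (0.34). Cgt-1, a ceramide glucosyltransferase, averaged 13.8 ± 0.689 and 17.7 ± 0.570 CPM (SD, n = 3; log2 0.36). Asm-2, an acid sphingomyelinase, fell (-0.38). Of the 17 alternative analyses, cgt-1 lost its call in 10, gba-2 in 7 and asm-2 in 6. Asah-1, the acid ceramidase, had 35.5, 33.4 and 51.7 CPM in batch 1 and 41, 47.0 and 51.1 CPM in batch 4 (0.22, SE 0.07; edgeR adjusted p 0.0972), which did not pass. The 3 that rose became 1 without the untreated or the DMSO library of either batch, 5 without the UA library of batch 4 and 6 without the UA libraries of both batches.

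Gene lists of the germ line gave no call or 2 or 3 calls each, all of them lower in batch 4. Of 32 oocyte and eggshell genes, 28 had a negative value, with a median of -0.125. So had 24 of 28 major sperm protein genes (median -0.104) and 21 of 29 genes of sperm-specific small families (median -0.102). In these 3 lists 16, 10 and 7 genes had an unadjusted edgeR p under 0.05, against 2558 of all 14037. None of 24 nuage and RNA regulators, 27 meiotic chromosome genes, 33 replication and cell cycle genes and 21 spermatogenesis genes was called, and their medians lay between -0.04 and 0.0035. DESeq2 also called none of these 105, and 15 had an unadjusted edgeR p under 0.05. Of 28 major sperm protein genes, msp-76 and msp-78 fell by 0.22 and 0.24 (7.14%). Neither was called without the DMSO library of batch 1 or the untreated or DMSO library of batch 4, and 1 was without the untreated or UA library of batch 1. Of 29 genes of sperm-specific small families, nspb-8 and nspb-10 fell by 0.87 and 1.1 (6.9%), and neither was called without the untreated or DMSO library of batch 1 or the DMSO library of batch 4. Of 32 oocyte and eggshell genes, oma-2, an oocyte maturation factor, and perm-2 and perm-4, of the eggshell permeability barrier, fell by 0.31, 0.30 and 0.27 (9.38%), and 0 of the 32 were called without the DMSO library of either batch and 1 or 2 without any of the other 4 libraries. Rme-2, the yolk receptor of the oocyte, was at 63.0 CPM in batch 1 and 58.9 CPM in batch 4 as means (-0.10, SE 0.06; edgeR adjusted p 0.433).

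Perm-4 averaged 112 CPM in batch 1, 92.7 in batch 4, 66.1 in batch 2, 24.7 in batch 3 and 17.9 in batch 5. The order of the batches was thus that of the main axis, as for perm-2. Nspb-8 and nspb-10 did not follow it, with means of 1.97 and 1.61 CPM in batch 4 and 2.67 and 3.05 CPM in batch 5.

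The genes best known for developmental timing were not called. Lin-14, lin-28, lin-29, lin-41 and lin-42, the heterochronic genes that time larval stages, had log2 fold changes of 0.24, -0.02, -0.04, -0.07 and -0.05, with adjusted p of 0.186 to 0.922 by edgeR. Nhr-23 and nhr-25, nuclear receptors of the moult, differed by -0.03 and 0.17 (edgeR adjusted p 0.875 and 0.444). Of 19 moulting-cycle and stage regulators, bed-3, a zinc finger gene of the moulting cycle, was the only one called (0.41, SE 0.06; edgeR adjusted p 0.000509), with 55, 58.0 and 71.5 CPM in batch 1 and 84.1, 81.1 and 78.7 CPM in batch 4. Whether animals of the 2 batches differed in age at harvest was not tested.

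Markers of tissues gave few calls, but some of their summed levels did not overlap between the batches. Body-wall muscle markers summed to 27530 to 28560 CPM in batch 1 and 25600 to 26840 CPM in batch 4, with 18 of 21 negative and a median of -0.10. Pharynx markers summed to 1305 to 1385 CPM and 1204 to 1290 CPM, and vulva, uterus and gonad sheath markers to 247 to 255 CPM and 260.0 to 263 CPM. Hypodermis and seam markers summed to 1045 to 1106 CPM in batch 1 and 1111 to 1183 CPM in batch 4. Of the 11 tested, however, 7 were negative and the median was -0.08, opposite to the sum. Taken singly, 25% of all tested genes did not overlap between the batches. The sums of intestine, neuron and coelomocyte markers overlapped. The part of these sums in the other results was not tested. None of 14 pharynx, 17 vulva, uterus and gonad sheath, and 3 coelomocyte markers was called by edgeR or DESeq2, with 7 of the 34 at an unadjusted p under 0.05. Calls were made for 1 of 13 intestine, 1 of 11 hypodermis, 1 of 21 body-wall muscle and 1 of 29 neuron markers. The first 3 were mtl-2, rol-6 and tni-1, of which tni-1, a muscle troponin I (-0.23), was not called when any of the 6 libraries other than the UA library of batch 4 was left out. The neuron marker was tbh-1, the enzyme that makes octopamine, which fell from 7.90 ± 0.615 to 3.86 ± 0.681 CPM (SD, n = 3; log2 -1.04). Exons of other genes on the opposite strand cover part of tbh-1, 18.2% of its exon bases counting all overlaps, and the strand setting of the counting was not given. Of 10 male markers, summed counts were 78 to 126 in batch 1 and 81 to 99 in batch 4, with cwp-1, cwp-2 and cwp-3 at 0 to 3 counts per library. Of 16 embryo markers, 4 had no count in any of the 6 libraries, and the list summed to 6903 to 8313 counts in batch 1 and 6641 to 7002 in batch 4, nearly all of it from nid-1. In CPM the 3 embryo markers tested summed to 304.5 to 305.4 in batch 1 and 276 to 289 in batch 4, which did not overlap.

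Genes of osmotic and oxidative stress were called in opposite directions. Gpdh-1 and hmit-1.1, a glycerol phosphate dehydrogenase and a myo-inositol transporter that are induced by high salt, fell by 0.70 and 0.51, of 10 tested. Of 22 oxidative-stress genes 3 rose, and none did without the untreated library of batch 1 and 1 without the DMSO library of batch 1 or the untreated or DMSO library of batch 4. They were ctl-2, a peroxisomal catalase, gst-7 and gst-13, which rose by 0.24, 0.27 and 0.26. Gst-7 and gst-13 were also counted above among the glutathione S-transferases that rose. None of 9 small heat shock proteins and none of 21 insulin-like peptides was called by edgeR or DESeq2, with 3 and 1 at an unadjusted p under 0.05.

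The difference between batches was not the same in every treatment for a small set of genes. Across all 14037 genes, which are not independent replicates, the difference in the untreated pair correlated with that in the DMSO pair at r = 0.513, with the UA pair at 0.273, and the DMSO pair with the UA pair at 0.358. A test of the batch difference in UA against that in DMSO and untreated, chosen after the data were seen and resting on 1 UA library per batch, called 68 genes (0.484%), of which 5 were among the 517. The 68 became 23 without the untreated library of batch 1, 24 without that of batch 4 and 111 without the DMSO library of batch 4.

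Acs-2, an acyl-CoA synthetase of mitochondrial fatty acid oxidation, had 194 and 180 CPM in the untreated and DMSO libraries of batch 1 and 58.5 and 73.0 CPM in those of batch 4. In UA the order turned, with 110 CPM in batch 1 and 134 CPM in batch 4. Its fold change over the 3 treatments was -0.80 (SE 0.25; edgeR adjusted p 0.0697), which did not pass. Cyp-35A3, a P450 gene that was lower in UA than in DMSO in each of the 5 batches, had 33.1 and 40.8 CPM in the untreated and DMSO libraries of batch 1, 49.5 and 58.4 CPM in those of batch 4, and 10.4 and 5.10 CPM in the 2 UA libraries (0.28, SE 0.17; edgeR adjusted p 0.415).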

How the data were processed

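Whole-animal poly-A RNA was sequenced from 15 libraries, and the deposited table holds gene counts per library, which the authors made, per the labels, from a stranded kit with STAR 2.5.2b on WBcel235 and featureCounts 1.5.2. Duplicate marking was named in the study's methods. The strand setting and the handling of reads with several matches were not given in the sources used here. Genes with at least 10 counts in 1 library and 1 CPM in 3 libraries were kept. EdgeR 4.0.16 in R 4.3.3 (TMM, quasi-likelihood, legacy method) was fitted to all 15 libraries with batch and treatment as terms, and batch 4 was contrasted with batch 1 at a false discovery rate of 0.02. CPM values use TMM library sizes; principal components used log2 CPM with a prior count of 2. DESeq2 1.42.0 and the other alternatives are in the closing section. The test was checked on simulated counts. The annotation was Ensembl release 115, in which 13908 tested genes had an entry. Named genes were the 12 highest and the 12 lowest fold changes among genes called with the same sign in all 3 treatments and at least 10 counts in each library of the higher batch, up to 3 called members of each of 61 lists by the same conditions, and a set of stage, yolk and study genes. Of 625 list entries, 581 matched the table. The batches, the lists and the rule were chosen with earlier results of these data known.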

Additional observations from a re-analysis of the deposited data

Results flagged for a closer look

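The batch difference depended on treatment for 68 genes in the test of UA against DMSO and untreated libraries, 55 with a higher and 13 with a lower difference in UA. With 1 UA library in each batch, this compares those 2 libraries with the spread over the whole fit. The difference in UA exceeded that in the other 2 treatments by 1.92 on the log2 scale for dpy-17 (edgeR adjusted p 1.37e-05), a cuticle collagen, by 1.79 for acs-2 (7.26e-05), by 1.55 for acdh-2 (0.000117), an acyl-CoA dehydrogenase, and by 1.11 for F26F12.3 (1.09e-05). It was lower in UA by -0.93 for cyp-35A2 (0.00141) and by -1.58 for cyp-35A3 (0.00332). For dpy-17, the untreated and DMSO libraries had 10.7 and 9.52 CPM in batch 1 and 4.72 and 5.17 CPM in batch 4, and the UA libraries 6.42 and 11.9 CPM. All 6 kept their sign under the 8 alternatives tried for this test. None of the 8 left out a UA library, so they cannot show how far the values rest on those 2 libraries. The 6 genes were also taken from those that this test called. Dpy-17, acdh-2, F26F12.3 and cyp-35A2 were picked after their values were seen.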

How the results depend on the processing

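The 517 genes called became 314 with the 6 libraries alone (107 higher), 326 with no treatment block (134 higher, 192 lower) and 816 at a false discovery rate of 0.05 (361 higher, 455 lower). Leaving out 1 of the 6 libraries gave 222 to 775 genes, 85 to 346 higher and 134 to 429 lower. The 70 genes at least 2-fold apart became 43 with at least 10 counts in every library and 56 to 85 with 1 library left out. RLE factors gave 552 genes (216 higher, 336 lower), upper-quartile factors 476 (239 higher, 237 lower) and DESeq2 531 (185 higher, 346 lower), against 225 higher and 292 lower. The test of UA against the other treatments gave 23 to 111 genes with 1 library left out. The position of batch 4 between batches 1 and 5 became 0.261% with untreated libraries alone. No named gene past the threshold changed sign, and 41 of 105 passed in every alternative of 17 in which they were tested. No paired analysis was possible because the replicate numbers name the batches compared and so cannot also be a block. Treatment, held once in each batch, was the block of the fit. Depth bore on the error of genes with few counts, as the SE of the log2 fold change was 0.34 for mtl-1, with 8 to 133 counts in a library.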
